A study of Mus musculus with 4 samples.

Results

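The integrated stress response is described here through 10 genes: Gdf15, Atf3, Atf4, Ddit3, Trib3, Chac1, Asns, Sesn2, Ddit4 and Hspa5. They were chosen by gene name, with results of the comparison below already known, and were found among the 56748 genes of the count table for the mouse small intestine (SI). These names match 11 rows, because Ddit3 has a second entry (ENSMUSG00000116429) that has 0 counts in every library. All 10 genes passed the filter on low counts, which 16094 genes passed in all.

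Young adult p53+/+ (wild type) and p53-/- mice received total body irradiation (TBI) of 12 Gy from a Cs-137 source, and poly-A RNA of the SI was sequenced 1 day later in 2 libraries per genotype. Every library came from an irradiated mouse, so that the values compare genotypes after TBI and give no level before it. The p53-/- mice lack p53 in all cells, and the RNA was taken from whole tissue with epithelium, immune cells, muscle and fat together. The libraries are named by the numbers in the table, 7 and 8 for p53+/+ and 9 and 10 for p53-/-.

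The integrated stress response starts when kinases that sense amino acid shortage, unfolded protein in the endoplasmic reticulum (ER), double-stranded RNA or heme shortage phosphorylate the translation factor eIF2alpha. General translation then slows while the transcription factor ATF4 is translated more, so that the pathway can be active with little change in Atf4 mRNA. ATF4 and its partner CHOP, encoded by Ddit3, turn on genes for amino acid supply, glutathione turnover and feedback control. Several of the genes also answer to other signals, and Gdf15, Sesn2, Ddit4 and Atf3 are known p53 target genes as well.

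Library totals ran from 15005479 to 22173164 counts. Levels are given as CPM, the reads of a gene relative to all reads of its library, after TMM scaling has made the libraries comparable. The targeted gene, Trp53, had 57.7 and 47.1 CPM in p53+/+ SI against 19.8 and 22.5 CPM in p53-/- SI, which goes with the labels, although reads over the whole gene cannot show which exons the allele lacks. Epithelial markers fitted the labelled tissue, with Vil1 at 2868, 2659, 2336 and 1690 CPM in libraries 7 to 10. The libraries of 1 genotype differed by more than sampling noise. Library 8 stood apart by smooth muscle and fibroblast markers, whose sum was 3437 CPM against 381 to 980 CPM in the others. Library 10 stood apart by B cell markers, whose sum was 457 CPM against 1.11 to 22.5 CPM, and by Xist, transcribed in female cells, with 588 counts against at most 4, although the study's methods describe mice matched for gender. Ribosomal RNA, read as Rn18s-rs5, took 4.59% of the counts of library 10 against 0.296%, 0.473% and 0.863% in libraries 7 to 9, higher in both p53-/- libraries, and its part in the results was not tested. In bulk tissue, fewer cells of a type and less RNA per cell cannot be told apart.

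Of the 10 genes, Gdf15 stood far below its p53+/+ level in the p53-/- SI, Sesn2 and Ddit4 were lower by a smaller factor, Atf4 was level, and Hspa5 was higher. The CPM of the genotypes did not overlap for 6 genes, of which 5 were lower (Gdf15, Atf3, Ddit3, Sesn2 and Ddit4) and 1 was higher (Hspa5) in the p53-/- SI. Over all tested genes, 24.4% did not overlap and were lower, and 26.4% did not overlap and were higher. Past an adjusted p of 0.05 in edgeR's quasi-likelihood test, 2 of the 10 (Gdf15 and Sesn2) were lower and 0 higher, with 5 and 0 at an unadjusted p under 0.05, where 0.491% of all tested genes were called (0.193% lower and 0.298% higher) and 18% had an unadjusted p under 0.05. DESeq2 called 3 lower (Gdf15, Sesn2 and Ddit4) and 0 higher, against 8.65% of all genes it tested (3.54% lower and 5.11% higher). In edgeR the call of Sesn2 was lost without library 9, with upper-quartile factors, with library sizes only, with at least 10 counts in every library and with the 50 most abundant genes left out, and neither call held without library 10. With no filter on low counts, 4 were called lower (Gdf15, Atf3, Sesn2 and Ddit4). Without library 7 the same 4 were called lower and 2 higher (Chac1 and Asns), and without library 8, 4 were called lower (Gdf15, Trib3, Sesn2 and Ddit4). Since the genes were chosen with this comparison known, nothing is read from these counts, and the values below are a description with no test.

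**Figure D1:**
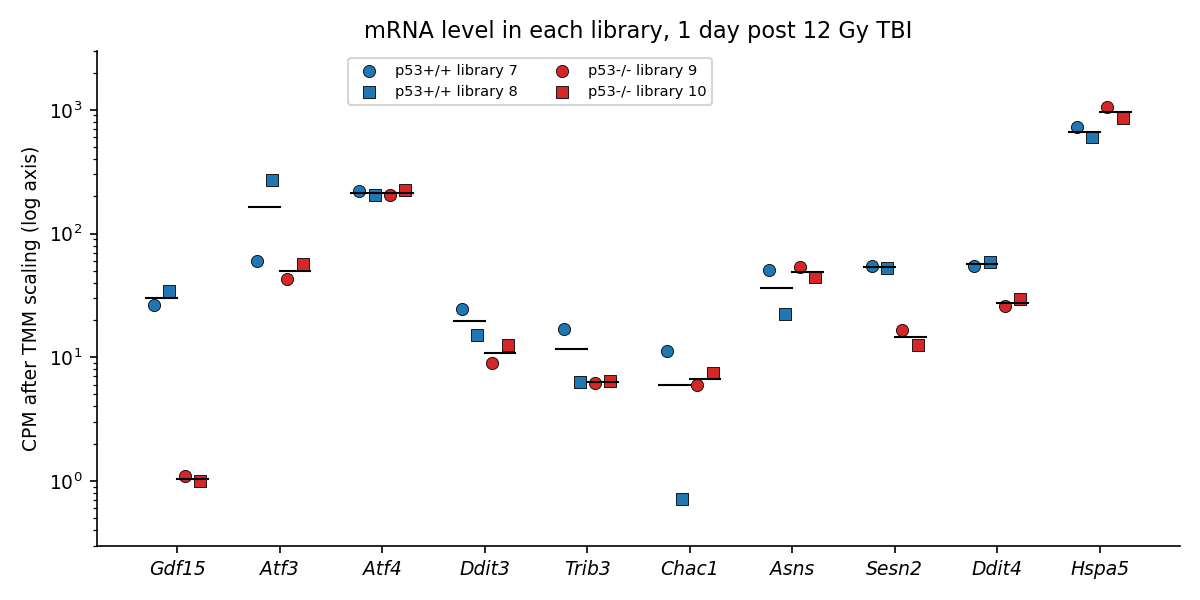
CPM after TMM scaling (log axis) of the 10 genes in each of the 4 libraries, with circles and squares for single libraries, blue for p53+/+, red for p53-/-, and a bar at the mean of each genotype. Gdf15 lies between 26.3 and 34.2 CPM in p53+/+ and near 1 CPM in p53-/-, whereas the 4 points of Atf4 lie between 204 and 224 CPM.

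Gdf15 (ENSMUSG00000038508, chromosome 8) encodes a secreted hormone of the TGF-beta family that is released by stressed cells and acts on the brainstem to reduce appetite. It was read by 425 and 527 counts in p53+/+ SI and by 25 and 20 counts in p53-/- SI. These counts correspond to 26.3, 34.2, 1.10 and 0.995 CPM. Both p53-/- libraries were therefore far below both p53+/+ libraries, at 3.62% and 3.29% of the p53+/+ mean. The means were 30.2 ± 5.58 and 1.05 ± 0.0713 CPM (SD, n = 2), so that Gdf15 was 28.7-fold lower (log2 fold change -4.84, standard error 0.308). With each library left out in turn it ran from -5.01 to -4.65, and with another scaling, filter or test from -4.87 to -4.78. Within a genotype the libraries differed by 1.30-fold (p53+/+) and 1.10-fold (p53-/-).

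Gdf15 has 2 annotated start sites, 361 bases apart, in the RefSeq promoters of the GRCm38.p6 build. A window of 250 bases before each start site of the 10 genes, 11 windows in all, was searched on both strands for motifs of the pathway and for the p53 response element. Neither Gdf15 window held one of them. The 100 bases before the outer start site are shown because Gdf15 is the gene with the largest difference of the 10. They are from chr8:70632457-70632556 on the minus strand, in lower case throughout since no searched motif lies in them.
Gdf15: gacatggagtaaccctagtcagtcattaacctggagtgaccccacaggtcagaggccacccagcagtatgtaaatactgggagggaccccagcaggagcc
The full p53 response element, 2 decamers with a spacer and no mismatch allowed, was in 0 of the 11 windows and in 0.0639% of all 32851 promoter windows. The single p53 decamer was in 0 and in 7.13%. These shares describe the letters of a short window and leave out enhancers, introns and sites with mismatches, so nothing about p53 binding follows from them.

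Sesn2 and Ddit4, which both restrain the growth kinase mTORC1, had the tightest values between the p53+/+ libraries of the genes that were lower. Sesn2 encodes sestrin 2, a leucine sensor and antioxidant protein. Its levels were 54.2 and 52.6 CPM in p53+/+ against 16.7 and 12.6 CPM in p53-/-. Sesn2 was at 53.4 ± 1.17 and 14.7 ± 2.90 CPM (SD, n = 2), 3.63-fold lower. The log2 fold change, -1.86 (standard error 0.205), ran from -2.08 to -1.62 with a library left out. The p53+/+ libraries differed by 1.03-fold for Sesn2, and 93.7% of tested genes differed by more between them.

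Ddit4 encodes REDD1, which acts on mTORC1 through the TSC complex. Its levels were 54.7 and 58.5 CPM in p53+/+ against 25.9 and 29.5 CPM in p53-/-. The genotypes were well apart for Ddit4, at 56.6 ± 2.65 and 27.7 ± 2.57 CPM (SD, n = 2). Ddit4 was thus 2.04-fold lower (log2 fold change -1.03, standard error 0.159), and the log2 value ran from -1.08 to -0.94 with a library left out.

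Atf4, the central transcription factor of the pathway, was read by 3150 counts or more in every library and did not separate the genotypes. Its p53+/+ levels were 221 and 204 CPM, and its p53-/- levels were 204 and 224 CPM. On the log2 scale the difference of Atf4 was 0.01 (standard error 0.178), with a range of -0.05 to 0.08 over the libraries left out. These counts measure mRNA, and the translation of ATF4, at which the pathway acts, was not measured.

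Hspa5 encodes BiP, the main chaperone of the ER and a sensor of unfolded protein, and was the most abundant of the 10 genes. Its p53+/+ levels were 722 and 597 CPM, and its p53-/- levels were 1047 and 864 CPM. Both p53-/- values were thus above both p53+/+ values. The means of Hspa5 were 660 ± 87.8 and 956 ± 129 CPM (SD, n = 2), 1.45-fold higher (log2 fold change 0.54, standard error 0.248). With a library left out the log2 value ran from 0.39 to 0.72. Plasma cells are rich in ER, and the sum of their markers had the same direction between genotypes, at 464, 496, 1316 and 1738 CPM in libraries 7 to 10. Of the 6 markers, 5 were higher in both p53-/- libraries. Sdc1 (414, 308, 229 and 199 CPM), much of the p53+/+ sum, was lower. Crypt stem and Paneth cell markers had a sum of 6255, 4116, 7423 and 8990 CPM, with 5 of 6 higher without overlap. Most of that sum was the Paneth cell gene Lyz1 (5999, 3929, 6593 and 8140 CPM). T cell markers, with 6.37, 10.4, 60.8 and 113 CPM and 8 of 8 higher, had that direction too. So did the sums of macrophage and monocyte markers (63.5, 200, 241 and 680 CPM) and B cell markers (1.11, 1.82, 22.5 and 457 CPM). The epithelial, goblet and enteroendocrine, and adipocyte sums were lower in both p53-/- libraries, and the smooth muscle and fibroblast sums overlapped. Within each genotype, the library with more Hspa5 had the lower plasma cell and T cell sums. The crypt and Paneth cell sum was higher in that library in p53+/+ SI and lower in p53-/- SI. These orders rest on single libraries. The part of any of these cell types in the level of Hspa5 was not tested.

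Hspa5 was also the gene whose promoter held the ER stress response element, the site of ATF6 with NF-Y, which was searched as CCAAT, any 9 bases and CCACG. The element, in capitals, lies at positions -65 to -47 from the start site, on the plus strand of chr2:34772019-34772048 in GRCm38.p6.
Hspa5: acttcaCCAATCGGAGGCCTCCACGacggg
It was in 1 of the 11 windows and in 0.113% of all promoter windows. Its last bases, CCACG, are the core bound by ATF6, and this core alone was in windows of 6 of the 10 genes (Asns, Atf4, Chac1, Ddit4, Hspa5 and Sesn2) and in 28.3% of all windows. The cAMP response element TGACGTCA was in 0 of the 11 windows and in 1.55% of all.

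The other 5 genes, Atf3, Ddit3, Trib3, Chac1 and Asns, differed more between the p53+/+ libraries than the first 5 did, and for most of them 1 library set the direction of the comparison. Library 8 was lower than library 7 for 4 of them, by a log2 difference of -3.96 for Chac1, -1.42 for Trib3, -1.19 for Asns and -0.70 for Ddit3. For Atf3 it was higher, by 2.18. The p53-/- libraries differed less from each other for each of the 5, by 1.05-fold to 1.41-fold.

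Atf3 encodes a transcription factor of the ATF family that responds early to many kinds of stress and damage. Its level was 59.4 CPM in library 7, 270.0 CPM in library 8, and 42.5 and 56.7 CPM in the p53-/- SI. Library 8 alone was high, and library 7 was close to the p53-/- libraries. Between genotypes, Atf3 had a log2 fold change of -1.73 (standard error 0.682), which was -0.27 without library 8 and -2.44 without library 7. The early response genes Jun (157, 483, 130 and 162 CPM) and Fos (122, 346, 46.3 and 145 CPM) were also highest in library 8, as was the smooth muscle marker Acta2 (109, 923, 229 and 180 CPM). Of the Fos and Jun relatives, Fosb, Fosl1 and Fosl2 were highest in library 8 too. Junb (301, 311, 212 and 315 CPM) and Jund (277, 271, 217 and 271 CPM) were not. The part of tissue makeup or handling in Atf3 was not tested.

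Ddit3 encodes CHOP, which takes prolonged ER stress towards cell death. Its levels were 24.5 and 15.1 CPM in p53+/+ against 8.94 and 12.6 CPM in p53-/-. All p53-/- values were lower, though the nearest values of the genotypes lay close together. For Ddit3 the log2 fold change was -0.88 (standard error 0.347), and it was -0.47 without library 7 and -1.19 without library 8. Of its 1713 bases of exon, 186 (10.9%) are shared with other genes in the GENCODE M21 annotation, 105 with its own second entry, 68 with Mars and 13 with Gm4189. Mars and Gm4189 lie on the opposite strand, and the setting of the counting for strand is not given in the sources used here. The other 9 genes share no exon base with another gene in that annotation.

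Trib3 encodes a pseudokinase that is induced by ATF4 and CHOP and holds back their activity. It was at 16.9 CPM in library 7 and at 6.29, 6.14 and 6.47 CPM in libraries 8, 9 and 10. Only library 7 was thus apart, and the genotypes overlapped. For Trib3 the log2 fold change of -0.88 (standard error 0.515) became 0.01 without library 7.

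Chac1 encodes an enzyme that breaks down glutathione and is a sensitive target of ATF4. It was read by 180, 11, 135 and 150 counts in libraries 7 to 10, or 11.1, 0.714, 5.92 and 7.46 CPM. Library 8 was far below the other 3. The p53+/+ libraries differed by 15.6-fold for Chac1, the widest ratio of the 10 genes. Its log2 fold change was 0.17 (standard error 1.08), 3.22 without library 7 and -0.74 without library 8, so that no direction can be given.

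Asns encodes asparagine synthetase, which makes asparagine from aspartate and is induced by amino acid shortage. Its levels were 50.6 and 22.2 CPM in p53+/+ and 53.6 and 44.9 CPM in p53-/-. Library 8 was again the low one. For Asns the log2 fold change of 0.43 (standard error 0.389) became -0.05 without library 8 and 1.16 without library 7.

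**Figure D2:**
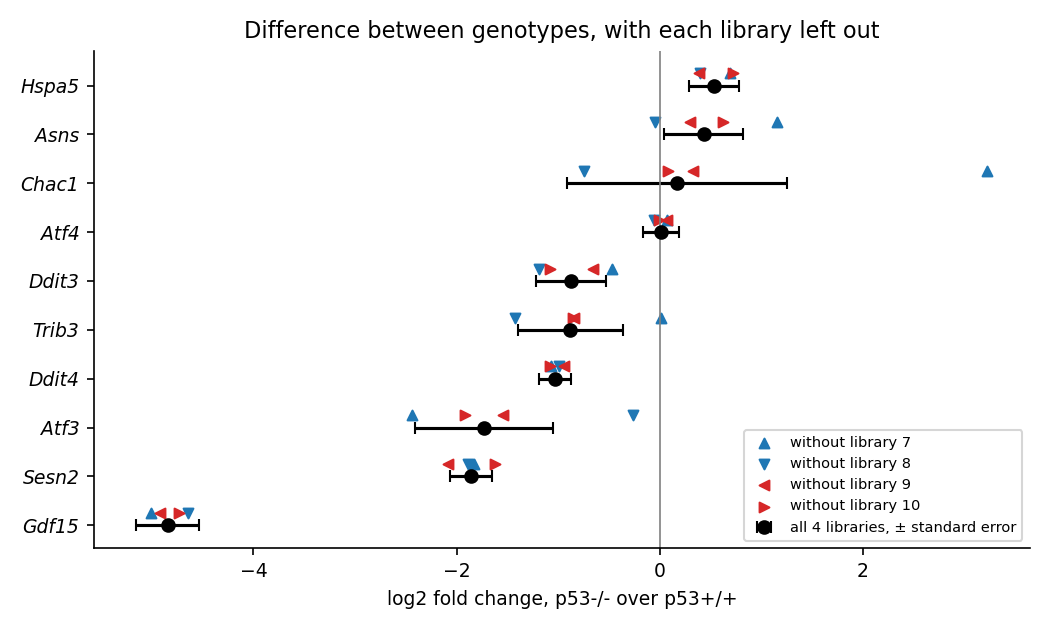
Log2 fold change of p53-/- over p53+/+ for the 10 genes, with black points and bars for all 4 libraries and their standard error, and triangles for the value with 1 library left out. Gdf15, Sesn2 and Ddit4 stay below 0 by at least 0.94 in every case, whereas Chac1 spans -0.74 to 3.22.

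The promoters of Asns, Atf3 and Chac1 are shown because these 3 hold the C/EBP-ATF response element, TGATGNAA, the site that ATF4 binds together with C/EBP proteins. It is in capitals below, read along the gene's strand in GRCm38.p6. In Asns it lies at -23 to -16 from the start site (chr6:7693214-7693243, minus strand) and reads forward. In Atf3 (chr1:191183425-191183454, minus strand) and Chac1 (chr2:119351038-119351067, plus strand) it lies at -110 to -103 and -193 to -186 and reads in reverse.
Asns: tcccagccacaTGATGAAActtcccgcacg
Atf3: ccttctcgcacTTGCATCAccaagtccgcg
Chac1: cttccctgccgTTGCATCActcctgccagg
The element was in 3.45% of all promoter windows and in 3 of the 11 windows here. Atf3 and Chac1 share the same 8 letters, while their levels in library 8 went opposite ways, as given above. The rest of the genes (Gdf15, Atf4, Ddit3, Trib3, Sesn2, Ddit4 and Hspa5) had no such match in these windows. Sites farther upstream, within the genes or with a mismatch were not searched, so it does not follow that these genes lack the element.

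Divided by exon length, the p53+/+ levels could be put in order between genes. In the p53+/+ SI, Hspa5 was highest at 156 ± 20.8 CPM per kb, followed by Atf4 at 90.3 ± 5.07 and Atf3 at 76.5 ± 69.1 (SD, n = 2). Ddit4 was at 32.2 ± 1.51, Gdf15 at 16.3 ± 3.01, Sesn2 at 15.4 ± 0.337 and Asns at 13.3 ± 7.35 CPM per kb. Ddit3 (11.5 ± 3.90), Trib3 (5.46 ± 3.53) and Chac1 (3.62 ± 4.50) closed the order. The ranges of neighbours did not overlap between Hspa5 and Atf4, between Ddit4 and Gdf15, and between Ddit3 and Trib3, and the other 6 pairs of neighbours overlapped.

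In the p53-/- SI the order per length changed mainly in Gdf15, which went from rank 5 to rank 10 of 10. Hspa5 was at 226 ± 30.6, Atf4 at 90.9 ± 6.09 and Atf3 at 23.0 ± 4.64 CPM per kb (SD, n = 2), again the first 3. Asns (18.0 ± 2.25) stood beside Ddit4 (15.8 ± 1.47), with overlapping ranges. Below them were Ddit3 (6.30 ± 1.52), Sesn2 (4.23 ± 0.836), Chac1 (4.09 ± 0.667) and Trib3 (2.97 ± 0.110), of which Sesn2 and Chac1 overlapped. Gdf15 was last at 0.564 ± 0.0385 CPM per kb, below Trib3 without overlap.

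**Figure D3:**
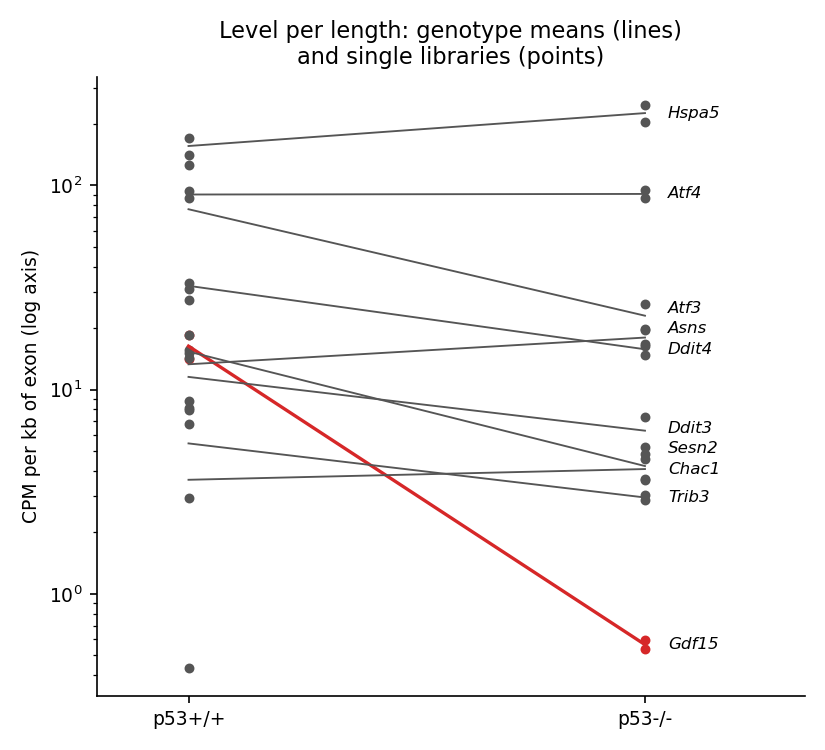
CPM per kb of exon (log axis) of the 10 genes in p53+/+ and p53-/- SI, with a line between the means of the genotypes and points for single libraries. The red line of Gdf15 runs from 16.3 to 0.564 CPM per kb and crosses 5 others, whereas that of Atf4 stays at about 90 CPM per kb.

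The genes most like Gdf15 across the 4 libraries were found by the root mean square distance between mean-centred log2 CPM values, over all tested protein-coding genes. The nearest was Plin1, a lipid droplet protein of fat cells, at a distance of 0.115, with 33, 51, 0 and 0 counts in libraries 7 to 10. Atg9b, an autophagy gene, followed at 0.238, with 22.9, 25.9, 0.745 and 1.09 CPM. With so few reads in the p53-/- libraries, the values of Plin1 there are set by the prior count of 2 added before the log, and its distance and first place in the order with them. Zfp750 (87, 62, 1 and 2 counts), for which the same holds in large part, was at 0.346, Nlrp1b (20.3, 20.3, 0.351 and 0.647 CPM) at 0.386 and Slc4a11 (12.3, 11.1, 0.614 and 0.647 CPM) at 0.406. All 5 had their high values in both p53+/+ libraries, as Gdf15 did. Adipocyte markers had the same direction, with a sum of 25.3 and 41.1 CPM in p53+/+ against 3.90 and 5.82 CPM in p53-/-, and Adipoq at 40, 51, 0 and 3 counts. Epithelial markers were lower by a smaller factor, with sums of 35146 and 26662 against 22042 and 19236 CPM. The part of either in Gdf15 was not tested.

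The other 9 stress genes were all farther from Gdf15 than these. Sesn2 was the closest of them at 1.43, rank 93 of the tested genes, followed by Atf3 at 1.80 and Ddit4 at 1.84. Ddit3 (1.98) and Trib3 (2.10) came next. Atf4 (2.37), Hspa5 (2.63), Asns (2.69) and Chac1 (3.28) were the farthest. A distance over 4 libraries is a description, and genes with a large difference between genotypes have small distances among themselves by that alone.

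**Figure D4:**
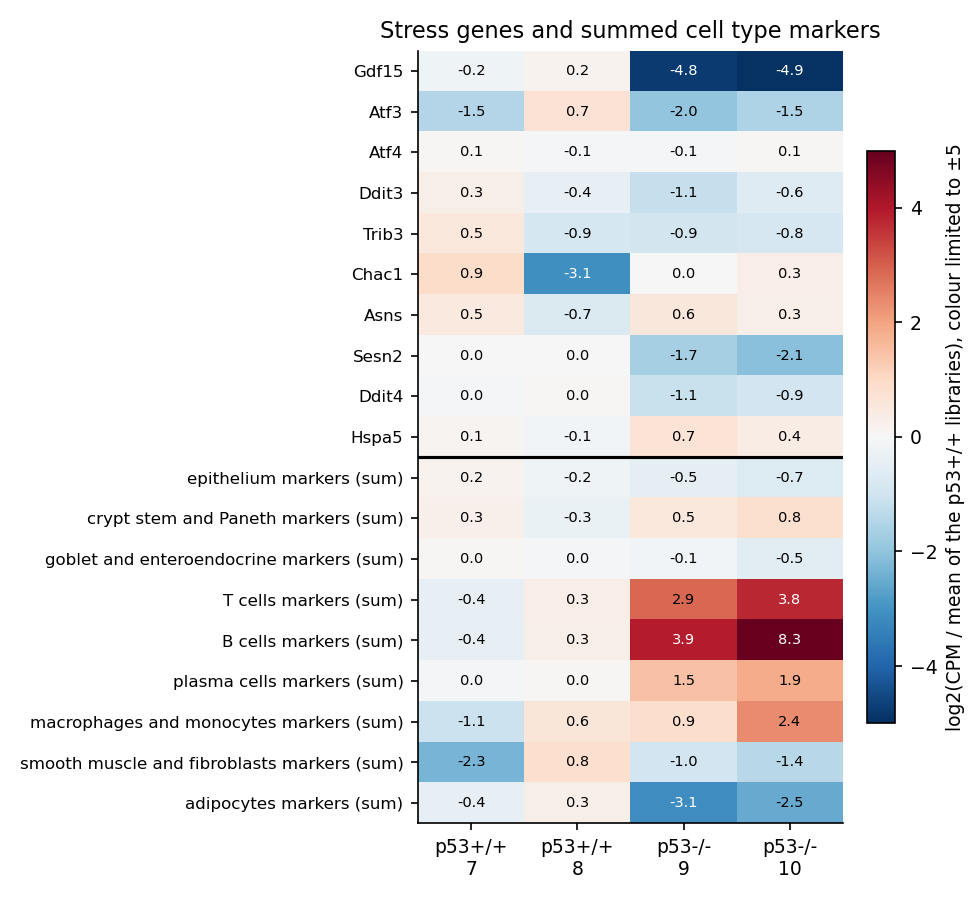
Log2 of CPM over the mean of the p53+/+ libraries, for the 10 stress genes (above the line) and for summed markers of 9 cell type groups (below it), in each library. Gdf15 is at -4.8 and -4.9 in the p53-/- libraries, Chac1 is at -3.1 in library 8, and B cell markers are at 8.3 in library 10.

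The wider pathway was described through 10 lists, 160 genes in the table of which 156 were tested, leaving out the 10 genes above. In edgeR's quasi-likelihood test, 1 rose (Derl3) and 1 fell (Ddit4l) past the adjusted threshold, where 0.298% of all tested genes rose and 0.193% fell. The median log2 fold change was 0.14, beside -0.01 over all tested genes. DESeq2 called 15 higher and 8 lower, where 5.11% of all genes it tested were called higher and 3.54% lower. At an unadjusted p under 0.05 in edgeR there were 41 of the 156 (29 higher and 12 lower), beside 18% of all tested genes. These shares of all genes also stand beside the counts of each list below. Over 13 alternatives the adjusted p of Derl3 ran from 8.67e-11 to 0.372 and that of Ddit4l from 4.37e-12 to 0.359, each called in 9. Neither edgeR call held without library 9 or without library 10, nor with upper-quartile factors or library sizes alone.

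Ddit4l, the paralog of Ddit4 that encodes REDD2, fell further than Ddit4. It was read by 218 and 158 counts in p53+/+ and 20 and 13 counts in p53-/-, or 13.5, 10.3, 0.877 and 0.647 CPM. Its log2 fold change, -3.95 with a standard error of 0.424, had an adjusted p of 0.0433 in edgeR's quasi-likelihood test. In the list of sestrins and mTORC1 brake genes, 1 of 14 fell and 0 rose in edgeR, with a median of -0.25. At an unadjusted p under 0.05, 1 was higher and 4 were lower. DESeq2 called 1 higher (Sesn3, adjusted p = 0.0220) and 2 lower (Ddit4l, and Flcn at an adjusted p of 0.0160). The sestrins went different ways beside Sesn2: Sesn1 was at 91.4, 97.6, 96.2 and 91.7 CPM (log2 fold change -0.01), with genotypes that overlapped, and Sesn3 was at 16.5, 21.8, 32.7 and 49.0 CPM (log2 fold change 1.09, adjusted p = 0.145 in the same edgeR test). Flcn, the folliculin gene, was at -0.97 (adjusted p = 0.134, edgeR). The list name is a label, and whether each of its genes, Flcn among them, restrains mTORC1 in this tissue was not tested.

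Derl3, which takes part in the removal of misfolded protein from the ER, rose among the ER chaperones and ER stress genes, the group of Hspa5. It had 24, 25, 314 and 297 counts in libraries 7 to 10, or 1.49, 1.62, 13.8 and 14.8 CPM. Its log2 fold change, 3.19 with a standard error of 0.337, had an adjusted p of 0.0424 by the quasi-likelihood test of edgeR. In that list of 22 genes, 1 rose and 0 fell in edgeR, with 10 higher and 1 lower at an unadjusted p under 0.05. DESeq2 called 4 higher and 1 lower. A positive log2 fold change was found for 21 of the 22, and for 7929 of all 16094 tested genes. The median of the list was 0.43, between 0.30 and 0.59 with each library left out. Creld2 was at 61.0, 37.4, 111 and 100.1 CPM, and the chaperone gene Hyou1 at 151, 125, 300.3 and 219.6 CPM. Both did not pass in edgeR (adjusted p = 0.136 and 0.148) and passed in DESeq2 (adjusted p = 0.00839 and 0.0117). The plasma cell, crypt, T cell, B cell and macrophage sums given beside Hspa5 were also higher in both p53-/- libraries. Their part in this list was not tested.

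Other targets of ATF4 and CHOP, the group of Asns, Chac1 and Trib3, had 0 of 27 genes past the adjusted threshold in edgeR, 9 at an unadjusted p under 0.05, and 4 higher and 1 lower in DESeq2. The median log2 fold change was 0.46. The smallest p-values belonged to Nupr1, a stress-induced chromatin protein (26.5, 19.9, 45.8 and 52.0 CPM), Phgdh, the first enzyme of serine synthesis (23.4, 16.4, 42.1 and 55.2 CPM), and Shmt2, of mitochondrial one-carbon metabolism (35.8, 28.1, 54.0 and 59.2 CPM). Their log2 fold changes of 1.07, 1.29 and 0.82 did not pass in edgeR (adjusted p = 0.103, 0.105 and 0.123). They passed in DESeq2 (adjusted p = 0.00479, 0.00184 and 0.0319). The median of this list had the same direction between genotypes as the higher marker sums given beside Hspa5, whose part was not tested. Fgf21, another stress hormone induced by ATF4, had 0, 0, 1 and 1 counts and was not tested.

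Cytosolic aminoacyl-tRNA synthetases, which are ATF4 targets in part, had 0 of 20 genes past the threshold in edgeR, 4 at an unadjusted p under 0.05, 1 higher in DESeq2, and a median of 0.17. Vars, Kars and Yars had the smallest p-values, with log2 fold changes of 0.88, 0.54 and 0.47. Upstream of Atf4, the list of eIF2alpha kinases and phosphatase subunits also held eIF2alpha itself, subunits of its exchange factor eIF2B, and genes that act on the kinases. It had 0 of 17 genes past the threshold in edgeR, 3 at an unadjusted p under 0.05, 1 lower in DESeq2, and a median of -0.07. Of these, the double-stranded RNA sensor Eif2ak2 (PKR) was at 0.59, the ER sensor Eif2ak3 (PERK) at -0.76 and the phosphatase subunit Ppp1r15a (GADD34) at -1.22 on the log2 scale. Ppp1r15a, a feedback target of ATF4, was at 22.7 and 33.5 CPM in p53+/+ and at 8.85 and 15.3 CPM in p53-/-.

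Relatives of the 10 genes by family were also listed. Of 21 ATF and AP-1 factors, the families of Atf3 and Atf4, 0 passed in edgeR, with 5 at an unadjusted p under 0.05, 3 higher and 2 lower in DESeq2, and a median of 0.03. Batf2, Creb3l3 and Fosl2 had the smallest p-values, with log2 fold changes of 0.88, -2.60 and -0.96. Among 5 relatives of Trib3 and Chac1, 0 passed in edgeR, with 1 at an unadjusted p under 0.05 and 1 lower in DESeq2. Trib1, the Tribbles family member with the smallest p, was at 264, 328, 81.6 and 102 CPM, a log2 fold change of -1.69 (adjusted p = 0.0560, edgeR), and Trib2 and Chac2 were at 1.52 and 0.36.

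The receptor of GDF15, encoded by Gfral, had 0 counts in every library, and its co-receptor gene Ret was at 22.2, 28.6, 17.7 and 10.9 CPM. Of 10 tested genes in the list of that receptor and TGF-beta family ligands, 0 passed in edgeR, with 2 at an unadjusted p under 0.05, 1 higher in DESeq2, and a median of 0.02. Tgfb1, Ret and Inhba had the smallest p-values in it, with log2 fold changes of 1.62, -0.83 and 1.44. Mitochondrial stress genes had 0 of 10 past the threshold, 0 at an unadjusted p under 0.05 and 0 in DESeq2, with a median of -0.03, and Afg3l2, Timm17a and Clpp were at -0.44, -0.30 and -0.31. Cytosolic heat shock genes had 0 of 11 in edgeR, 1 at an unadjusted p under 0.05, 1 higher in DESeq2, and a median of 0.21. Hsph1 and Hsp90aa1 were at 1.32 and 0.63, and Hspb8 was high in library 8, at 6.44, 41.7, 9.34 and 9.45 CPM, as Atf3 was.

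**Figure D5:**
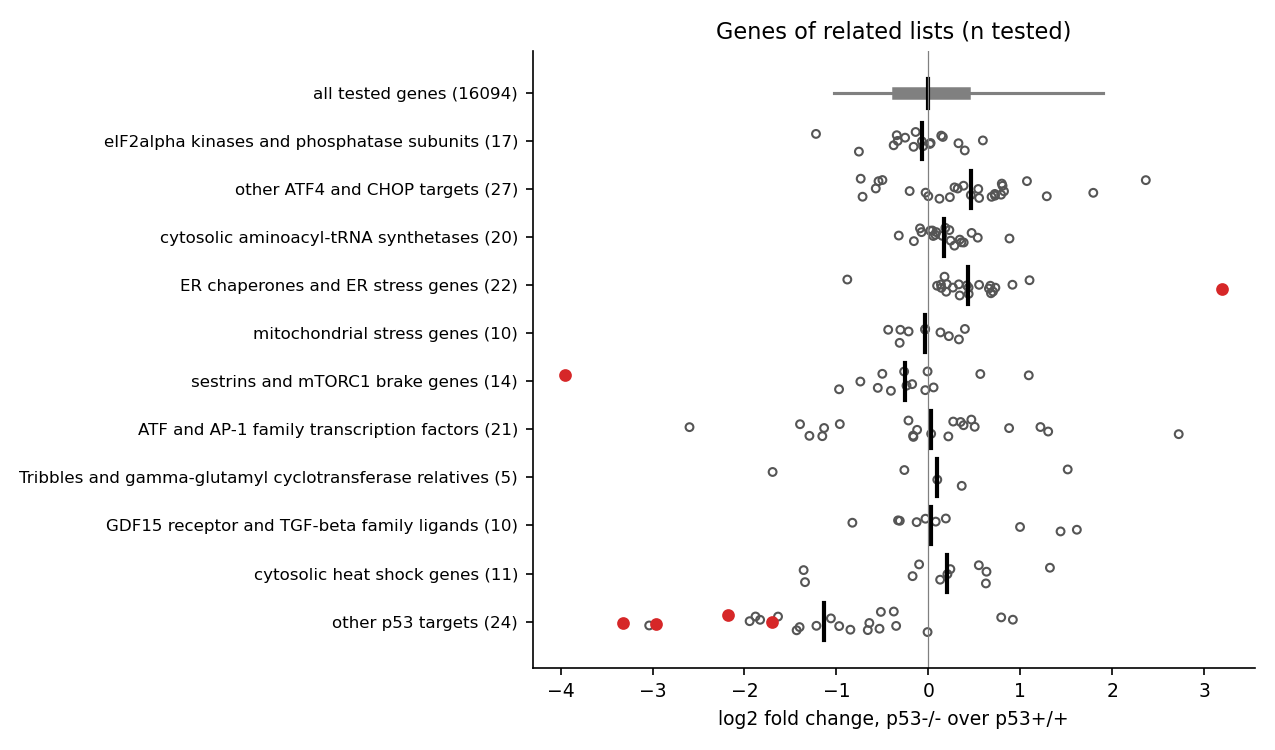
Log2 fold change of p53-/- over p53+/+ for the tested genes of each list, with the number tested in brackets, a black bar at the median and red filled points for genes past an adjusted p of 0.05 in edgeR's quasi-likelihood test. The grey bar gives the middle 50% and the grey line the middle 90% of all tested genes. Derl3 stands alone at 3.19 and Ddit4l at -3.95, and the bar of the other p53 targets lies at -1.14.

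Gdf15, Sesn2, Ddit4 and Atf3, which are p53 targets as well as stress genes, were last set beside 24 other p53 targets. Of these 24, 4 fell past the adjusted threshold in edgeR (Ccng1, Zmat3, Bax and Plk2) and 0 rose, with 16 lower and 1 higher at an unadjusted p under 0.05. DESeq2 called 13 lower and 0 higher. The median log2 fold change was -1.14, and 22 of the 24 were negative. Over all 16094 tested genes, edgeR called 31 lower and 48 higher, and 1275 were lower and 1617 higher at an unadjusted p under 0.05. The log2 fold change was negative for 8165 of them. DESeq2 called 3.54% of all genes it tested lower and 5.11% higher. Ccng1, which encodes cyclin G1, was at 482, 444, 49.0 and 43.6 CPM (log2 fold change -3.32, adjusted p = 0.0150, edgeR), and Zmat3 and Bax were at -1.70 and -2.18 (adjusted p = 0.0282 and 0.0296, edgeR). Gdf15, at -4.84, was below the log2 fold changes of all 24, whose lowest was that of Ccng1. Sesn2 (-1.86) and Atf3 (-1.73, but -0.27 without library 8) were below the median of the 24, and Ddit4 (-1.03) was above it. Without library 10 edgeR called 0 of the 24, with 15 at an unadjusted p under 0.05, and without library 9 it called 2.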

How the data were processed

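The authors sequenced poly-A RNA of the SI of 2 p53+/+ and 2 p53-/- mice and deposited raw read counts per gene, with no normalization. The submitters' processing notes name fastp, HISAT2 2.0.5, featureCounts 1.5.0-p3 and DESeq2 1.20.0. The genome build, annotation and strand setting are not given in the sources used here. Column names carry the genotype, with numbers that match no replicate in the labels. The study describes its data points as biological replicates, although the labels do not name the animals. The p-values rest on the spread between 2 libraries of each genotype. In the edgeR test that spread was drawn towards the trend over all tested genes, with 3.45 prior degrees of freedom, and so were the standard errors.

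Counts were scaled by TMM, filtered with filterByExpr and tested two-sided with edgeR 4.0.16 (quasi-likelihood, Benjamini-Hochberg over 16094 genes, threshold 0.05) in R 4.3.3. Totals were 17430246, 15005479, 22173164 and 19811346 counts in libraries 7 to 10, which set the counting error only. Distances used log2 CPM with a prior count of 2, and levels per length used union exon lengths of GENCODE M21, which may not be the authors' annotation. Promoters came from RefSeq (GRCm38.p6), where all 10 genes matched. The test was checked on simulated data.

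The genes and lists were chosen with earlier results of these data known. Named genes are the 10, in each list those past the threshold or otherwise the 3 with the smallest p, the 5 nearest to Gdf15, 3 other p53 targets, Trp53 and defining cell type markers. Jun, Fos, Junb, Jund, Fosb, Fosl1, Sesn1, Sesn3, Flcn, Creld2, Hyou1, Plk2 and Fgf21, the receptor gene Gfral, and the markers Sdc1 and Lyz1 were named after their values were seen. Alternatives were RLE and upper-quartile factors, library sizes only, no filter, at least 10 counts in every library, DESeq2 1.42.0, edgeR's likelihood ratio test, removal of immunoglobulin and T cell receptor segments, removal of the 50 most abundant genes, and each library left out.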

Additional observations from a re-analysis of the deposited data

How the results depend on the processing

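Over all genes, edgeR called 48 higher and 31 lower. Upper-quartile factors gave 29 and 20, library sizes only 26 and 20, no filter 1433 and 761, at least 10 counts in every library 24 and 18, DESeq2 816 and 565, and the likelihood ratio test 833 and 462. Leaving out each library gave 0 to 680 higher and 0 to 344 lower, with 0 of both without library 10, where 1201 genes had an unadjusted p under 0.05. For the 10 lists of the wider pathway (1 higher, 1 lower), upper-quartile factors and library sizes only gave 0 and 0 in edgeR (48 and 50 genes at an unadjusted p under 0.05), no filter 25 and 13, DESeq2 15 and 8, and the likelihood ratio test 11 and 6. Leaving out each library gave 0 to 5 higher and 0 to 6 lower, with 0 and 0 in edgeR without library 9 or library 10 (21 and 30 at an unadjusted p under 0.05). For the 24 other p53 targets (0 higher, 4 lower), no filter gave 1 and 15, DESeq2 and the likelihood ratio test 13 lower each, removal of immunoglobulin and T cell receptor segments 7 lower, and each library left out 0 to 12 lower (11 without library 7, 12 without library 8). With each library left out, the log2 fold change of Hspb8 ran from -2.14 (without library 7) to 0.54 (without library 8), a change of sign. The cause of these shifts was not tested. Of the 10 stress genes, Gdf15, Atf3, Ddit3, Sesn2, Ddit4 and Hspa5 kept their sign in all 13 alternatives. The median over all genes moved by over 0.1 only with no filter, to 0.15.

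No paired analysis was possible because the columns carry numbers of their own and not the replicate numbers of the labels. With 2 libraries per genotype and 1 time point after TBI, and with no unirradiated mice, the precision rests on the spread between libraries more than on depth, except for Gdf15 in p53-/- and for Chac1 in library 8, which have few counts.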
